A study of Homo sapiens with 4 samples.

Results

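Of the 75468 H3K27ac peaks of the prostate cancer line DU-145, 841 overlapped a peak of the ovarian cancer line SKOV-3 by at least 1 base and overlapped no peak of the colon cancer line COLO-205 or the ovarian cancer line OVCAR-3. They were chosen by the peak calls of the 4 lines alone, made 1.11% of the DU-145 list (exact 95% interval 1.04 to 1.19%), and are called shared peaks below. From the other side, 883 of the 14001 SKOV-3 peaks (6.31%) overlapped one of them. Sorted by their own overlaps instead, 1038 SKOV-3 peaks met DU-145 peaks only (7.41%), 960 OVCAR-3 peaks only (6.86%) and 603 COLO-205 peaks only (4.31%). The 4 lists together held 251138 peaks. The overlap with SKOV-3 and the absence of COLO-205 and OVCAR-3 peaks are therefore how the peaks were selected and not results.

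The study mapped the histone mark by chromatin immunoprecipitation and sequencing with one antibody (ab4729) in 1 library of each established line, without replicates, to look at candidate gain-of-function mutations in non-coding DNA. DU-145 was grown in Eagle minimal essential medium, SKOV-3 in McCoy's 5a, COLO-205 in RPMI and OVCAR-3 in RPMI 1640, each with FBS and with no treatment in the labels. Line, medium and library cannot be told apart, so no difference between lines has a replicate check, and intervals below cover counting error only.

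H3K27ac is the acetylation of lysine 27 on histone H3, placed by p300 and CBP, and it marks active promoters and enhancers. Promoters in use in most cell types carry it nearly everywhere, whereas enhancers carry it in a cell type dependent way. Carcinoma cells can hold epithelial genes, such as keratins and cell junction genes, or mesenchymal genes, such as vimentin and caveolins, in an active state, and the passage from the first to the second is the epithelial to mesenchymal transition.

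The sequences below are shown for 5 genes whose starts had shared peaks and no peak of the other lines within 1 kb, and for the AP-1 letters at ERBB2. Each of the first 5 gives the 200 bases before the most upstream protein-coding start within 1 kb of the shared peak, on the gene's strand and in hg19. Capitals mark GGGCGG on either strand, the core letters of KLF and SP factor sites. The windows are VIM at chr10:17270040-17270239 on the plus strand, CAVIN1 at chr17:40575275-40575474 on the minus strand, CAV1 at chr7:116164848-116165047, NT5E at chr6:86159102-86159301 and TWIST2 at chr2:239756473-239756672, the last 3 on the plus strand. All 200 bases lay inside the shared peak at VIM, CAV1, NT5E and TWIST2, and 44 did at CAVIN1. The last sequence is the window at the DU-145 summit of the ERBB2 shared peak, chr17:37844816-37844946 on the plus strand, with the AP-1 letters TGANTCA in capitals. Among the shared peaks that the gene lists and the rank rule name, only the ERBB2 peak had these letters within 150 bases of the DU-145 summit.
VIM: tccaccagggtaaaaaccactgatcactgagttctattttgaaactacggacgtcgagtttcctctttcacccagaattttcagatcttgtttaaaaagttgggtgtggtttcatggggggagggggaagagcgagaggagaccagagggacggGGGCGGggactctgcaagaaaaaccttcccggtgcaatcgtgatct
CAVIN1: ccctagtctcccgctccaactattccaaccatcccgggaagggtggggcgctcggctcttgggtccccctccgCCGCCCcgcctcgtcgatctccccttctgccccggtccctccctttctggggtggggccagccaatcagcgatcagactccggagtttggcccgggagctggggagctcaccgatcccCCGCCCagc
CAV1: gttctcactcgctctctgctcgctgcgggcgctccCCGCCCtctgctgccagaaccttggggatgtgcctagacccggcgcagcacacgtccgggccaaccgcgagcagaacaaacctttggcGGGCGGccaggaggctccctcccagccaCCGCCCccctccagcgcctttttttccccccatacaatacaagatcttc
NT5E: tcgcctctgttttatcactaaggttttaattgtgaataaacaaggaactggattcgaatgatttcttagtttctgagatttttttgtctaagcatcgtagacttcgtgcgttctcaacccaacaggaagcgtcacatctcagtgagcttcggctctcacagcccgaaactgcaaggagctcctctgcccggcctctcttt
TWIST2: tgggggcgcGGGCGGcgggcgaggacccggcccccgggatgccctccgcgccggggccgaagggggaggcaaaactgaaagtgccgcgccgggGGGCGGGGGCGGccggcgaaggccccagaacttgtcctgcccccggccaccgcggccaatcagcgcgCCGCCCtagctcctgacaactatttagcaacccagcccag
ERBB2: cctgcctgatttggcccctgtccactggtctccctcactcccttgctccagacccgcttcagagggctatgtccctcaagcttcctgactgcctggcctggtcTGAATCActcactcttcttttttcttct
The GGGCGG letters had 1 match before VIM, 2 before CAVIN1, 3 before CAV1, 4 before TWIST2 and none before NT5E. Such a window held the letters at 90 of the 133 shared peaks near a start (67.7%, 59.0 to 75.5%) and at 45.8% of all 78569 annotated protein-coding starts, most of which carry no peak of the class. Around the DU-145 summits, where only peaks are compared, the letters stood in 52.6% of the shared peaks near a start and in 54.0% of all DU-145 peaks near a start. A match is a run of letters and not evidence of a bound factor.

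Each shared peak had a fold enrichment over local background and a −log10 q from the peak caller, and both were computed within one library, so values and ranks of both lines are given side by side as descriptions. Ranks are relative to each list, of 75468 peaks in DU-145 and 14001 in SKOV-3, so the ranks of one line are not on the scale of the other. The median −log10 q of the shared peaks was 11 in DU-145, at a median percentile of 62.7 of that list, and 8.45 in SKOV-3, at a median percentile of 35.1. Fold enrichment ran from 2.23 through a median of 4.86 to 21.2 in DU-145, and from 2.75 through 5.68 to 16.1 in SKOV-3. The tag pileup recovered at the summit had a median of 32 tags in DU-145 (15 to 185) and of 20 in SKOV-3 (11 to 78), from about 36000000 and 22400000 tags. Of the 841, 193 (22.9%) ranked above the middle of both lists and 8 above the 90th percentile of both. Across the shared peaks, fold enrichment in one line had a Spearman rho of 0.33 with that in the other, and −log10 q of 0.26, beside 0.36 and 0.28 over the 5188 DU-145 peaks found in all 4 lines. These points share 2 libraries and the same genome sequence, and the correlations are descriptions.

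**Figure D1:**
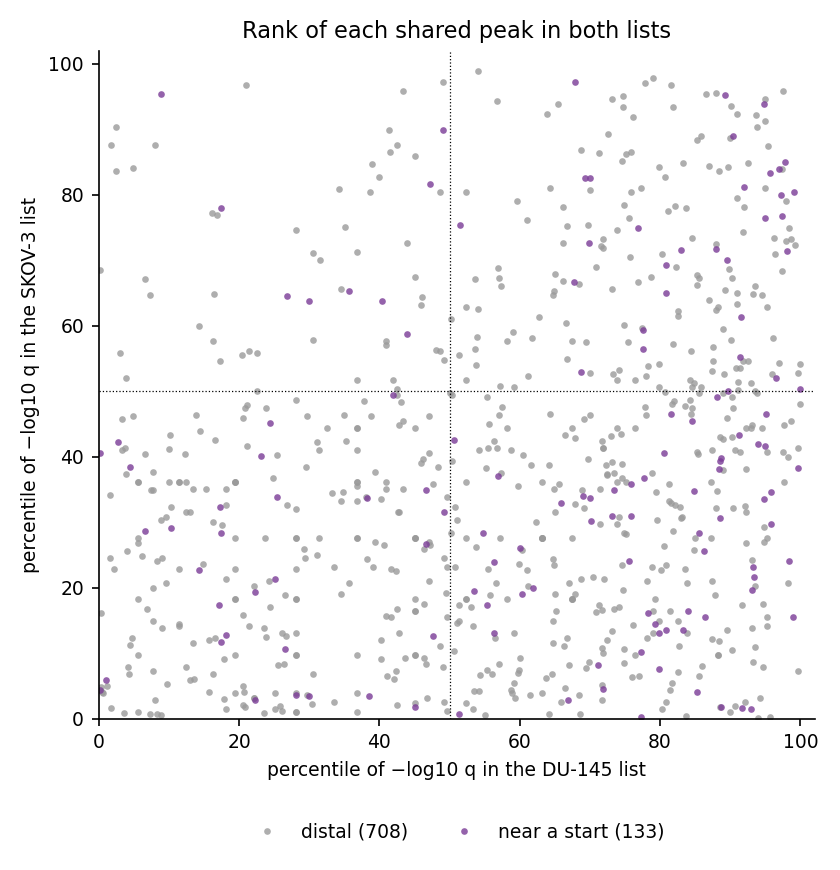
Percentile of −log10 q of each of the 841 shared peaks in the DU-145 list (x axis) and the SKOV-3 list (y axis), with the 708 distal peaks in grey and the 133 near a start in purple; dotted lines mark the middle of each list. The points fill the plot, and 193 lie above the middle of both lists.

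Overlap chose the peaks, so the distance between summits is bounded by the rule and is given as a description. The median distance from the DU-145 summit to the SKOV-3 summit was 70.0 bp, with quartiles of 30.0 and 159 bp, and the SKOV-3 summit fell inside the DU-145 peak in 776 of 841 (92.3%). The same distance was 61.0 bp in the 12131 DU-145 peaks shared only with OVCAR-3 and 92.0 bp in the 3876 shared only with COLO-205. The median overlap was 234 bp. The smallest overlaps that let a peak in were 1 base, near PADI4 and PAWR, and 2 bases, near GPR63, while the nearest DU-145 peaks left out lay 11 bp (near RBM25) and 18 bp (near TSPAN14 and GPR132) from a SKOV-3 peak. On the other edge of the rule, the shared peaks near ABLIM1, TACC2 and RUSC2 lay 2, 9 and 16 bp from a COLO-205 or OVCAR-3 peak, and peaks near GRB7, TPGS1 and PI4KA were left out for overlaps of 1, 19 and 22 bases. A COLO-205 or OVCAR-3 peak lay within 350 bp of 71 shared peaks, and none lay within 10 kb of 286 (34.0%, against 31.6% of the DU-145 peaks overlapping no other line).

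Most shared peaks were distal. A total of 133 (15.8%, 13.4 to 18.5%) lay within 1 kb of the transcription start of a protein-coding gene and 708 did not, whereas 24.0% of all DU-145 peaks were near a start. DU-145 peaks overlapping no other line were near a start in 9.63%, those shared only with COLO-205 in 17.8%, those shared only with OVCAR-3 in 36.0%, and those found in all 4 lines in 86.9%. Their interval overlapped that of the class shared only with COLO-205 (16.6 to 19.0%) and no other of these. Their summits fell in an intron in 513, in an exon in 131 and in no annotated gene in 197, and 163 lay more than 50 kb from any protein-coding start. When each list was held to its 14001 strongest peaks, the number of peaks in SKOV-3, the near-start share of the class rose to 55.1%, so this share moves with the number of peaks each list holds.

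**Figure D2:**
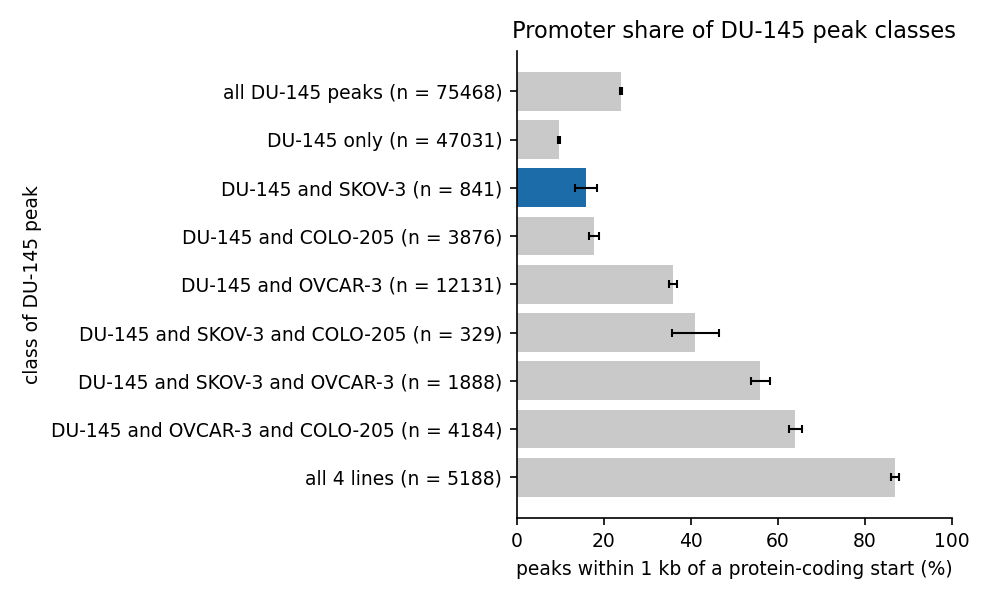
Share of peaks near a start, that is with the start of a protein-coding gene at most 1 kb away (x axis, percent), in each class of DU-145 peak by the lines it overlaps, with exact 95% intervals as error bars. The class shared only with SKOV-3 (blue) stands at 15.8%, between the DU-145 only class at 9.63% and the class of all 4 lines at 86.9%.

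The 133 peaks near a start belonged to 126 genes, of which 53 had a COLO-205 or OVCAR-3 peak within 1 kb of some start and 73 had none. Counted over all genes instead of peaks, 86 of 19794 protein-coding genes (0.434%) had DU-145 and SKOV-3 peaks at a start and no peak of the other lines at any, and the 73 were among them. VIM, CD44, CAV1, CAVIN1, NT5E, TWIST2, ROR1, ITGB3 and LAMA3 belonged to the 73, which were of many kinds and included 8 zinc finger genes. Of the 73, 62 had none within 5 kb either, which leaves out CD44 (OVCAR-3 at 2142 bp), ITGB3 (COLO-205 at 1209 bp) and TWIST2 (COLO-205 at 1930 bp). Of the 73, 32 remained with 50% of the DU-145 peak covered, 32 with equal numbers of peaks and 25 at a −log10 q of at least 10. The CAV1, CAVIN1 and CD44 peaks were each lost under at least 1 of these settings. For comparison of scale, 2061 genes had DU-145 and OVCAR-3 peaks only, 93 OVCAR-3 and SKOV-3 only, 461 COLO-205 and DU-145 only, and 38 COLO-205 and SKOV-3 only.

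VIM encodes vimentin, the intermediate filament of mesenchymal cells. Its start peak had a fold enrichment of 7.01 in DU-145 (91 tags at the summit) and 6.74 in SKOV-3 (45 tags), ranking at the 97.8 and 85.0 percentiles, but the summits lay 955 bp apart, so the folds were read at different positions of one wide peak. A further shared peak stood 11172 bp upstream, inside the antisense gene VIM-AS1, with folds of 5.94 and 10.3 and with summits 2 bp apart. The nearest COLO-205 peak to the start peak was 156248 bp away and the nearest OVCAR-3 peak 26267 bp away.

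CAVIN1 and CAV1 encode proteins that together build caveolae, the small pits of the cell membrane. The CAVIN1 peak had folds of 5.52 in DU-145 (102 tags) and 5.35 in SKOV-3 (55 tags), with summits 15 bp apart. At CAV1 the folds were 5.03 (86 tags) and 3.87 (37 tags) at summits 503 bp apart, so that CAV1 stood at the 93.9 percentile in DU-145 and at the 42.0 percentile in SKOV-3. CAV1 was 1 of only 3 shared peaks on chromosome 7, where SKOV-3 had 65 peaks in all. Another of those 3 lay in an intron of EGFR, a growth factor receptor gene, with folds of 5.06 and 4.54.

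NT5E encodes CD73, an enzyme of the cell surface that makes adenosine. Its start peak had folds of 4.87 (63 tags) in DU-145 and 6.05 (35 tags) in SKOV-3 at summits 525 bp apart, and an intronic shared peak 6386 bp from a start had 8.26 and 8.82. The nearest COLO-205 peak to that intronic peak was 177139 bp away and the nearest OVCAR-3 peak 51609 bp away. Both NT5E peaks ranked above the 70th percentile of both lists, which no other gene of the mesenchymal list but VIM did for more than 1 peak.

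CD44 encodes the hyaluronan receptor. Of the 5 DU-145 peaks assigned to the gene, 3 were shared peaks. The start peak was weak in both lines, with folds of 2.42 and 3.82 over high local backgrounds of 22.5 and 9.48 tags. The intronic peak 9823 bp from a start had 4.80 in DU-145 and 10.7 in SKOV-3, and an OVCAR-3 peak began 105 bp from it.

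TWIST2 and ZEB1 encode transcription factors of the epithelial to mesenchymal transition. The TWIST2 peak covered its start with folds of 6.83 in DU-145 and 6.26 in SKOV-3, and no COLO-205 or OVCAR-3 peak lay within 1 kb of a TWIST2 start. The ZEB1 peak had folds of 7.27 (45 tags) and 10.7 (50 tags), at the 89.3 and 95.2 percentiles. ZEB1 differed from TWIST2 in that all 4 lines had a peak at a ZEB1 start, and the nearest COLO-205 and OVCAR-3 peaks lay 319 and 311 bp from the shared peak. It was lost from the class when peaks closer than 350 bp were merged. ZEB1 is also among the master regulators predicted for these lines, of which FOSL1, SETDB1 and YY1 had no shared peak.

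**Figure D3:**
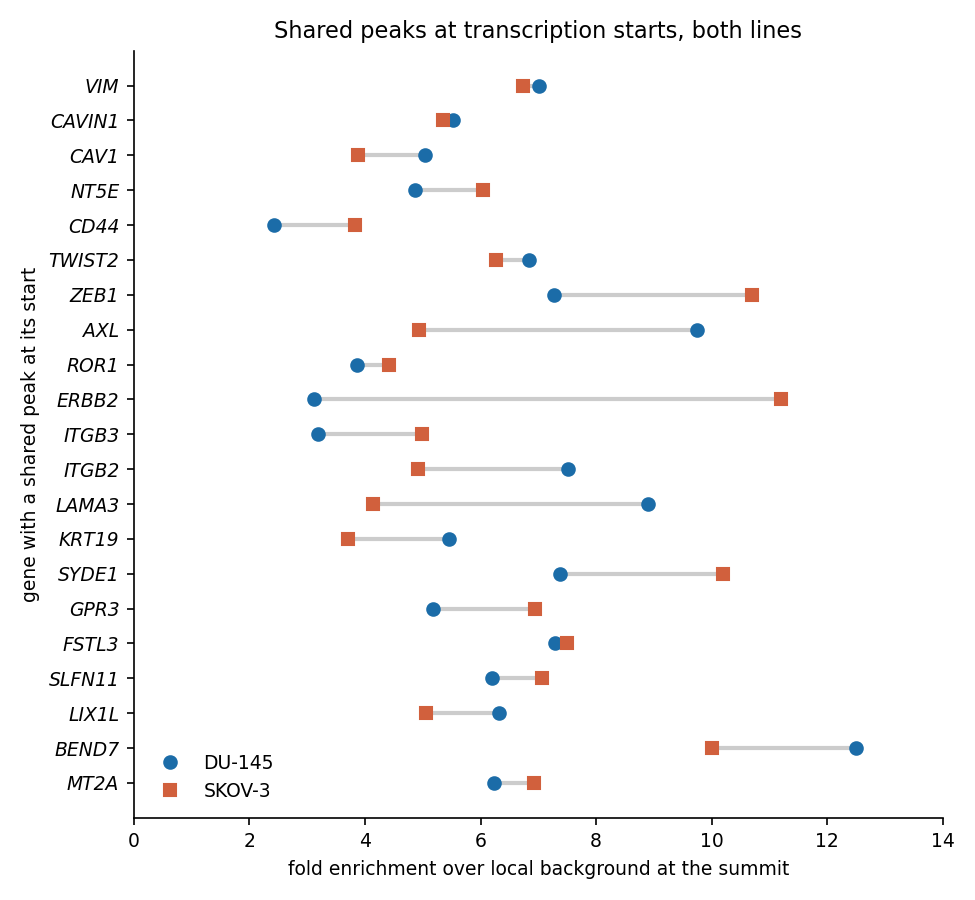
Fold enrichment over local background at the summit (x axis) of shared peaks at the starts of 21 named genes (y axis), in DU-145 (blue circles) and SKOV-3 (red squares), 1 library each. CAVIN1 had nearly equal folds in both libraries at summits 15 bp apart, AXL and LAMA3 were higher in DU-145, and ERBB2 was higher in SKOV-3.

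Among receptor and adhesion genes the folds of both libraries ranged from close to far apart. AXL, a receptor tyrosine kinase, had a start peak with folds of 9.74 (110 tags) in DU-145 and 4.94 (25 tags) in SKOV-3, and both other lines had a peak at another of its starts. ROR1, a receptor of WNT5A, had folds of 3.86 and 4.41 with the nearest peak of another line 110934 bp away. ERBB2, the receptor HER2, went the other way, with 3.12 (27 tags) in DU-145 and 11.2 (49 tags) in SKOV-3, and peaks of the other lines lay 404 and 377 bp off. Among integrins, ITGB3 had 3.19 and 4.98, with a COLO-205 peak 694 bp from the shared peak. ITGB2 had 7.51 and 4.92 at summits 1059 bp apart, with an OVCAR-3 peak within 1 kb of a start. LAMA3, a chain of the laminin that anchors epithelia, had 8.89 (95 tags) and 4.14 (23 tags). LAMB3, the gene of another chain of that laminin, had a distal shared peak 3440 bp from a start.

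The 10 peaks at starts that ranked highest in the weaker of both lines included VIM, ZEB1 and CAVIN1. SYDE1, a GTPase activating protein, ranked at the 94.8 and 93.8 percentiles with folds of 7.37 and 10.2. GPR3, a receptor that raises cyclic AMP, had 5.18 and 6.94, FSTL3, a binder of activin, 7.28 and 7.50, and SLFN11, a factor of the DNA damage response, 6.19 and 7.06. The FSTL3 summits lay 521 bp apart. FSTL3 had COLO-205 and OVCAR-3 peaks within 1 kb of a start, and SLFN11 had a COLO-205 peak there, 162 bp from the shared peak. BEND7 had the highest DU-145 fold of the 10, 12.5, with 53 tags in DU-145 and 25 in SKOV-3 over local backgrounds of 3.31 and 1.59 tags, the lowest of each library. LIX1L and MT2A, which encodes a metallothionein, completed the 10.

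Over whole gene lists, shared peaks were counted against the 2.81% of all protein-coding genes (557 of 19794) that had a shared peak assigned as their nearest start. Of 20 mesenchymal genes, 4 had one (20.0%: VIM, CD44, CAV1 and NT5E), all at the start, with 8 peaks in all. Of 9 transcription factors of the transition, TWIST2 and ZEB1 did, while ZEB2, SNAI2 and PRRX1 had no DU-145 or SKOV-3 peak at a start. Among integrins and laminins, ITGB1, ITGB2, ITGB3, LAMA3 and LAMB3 did, and of 26 receptor tyrosine kinases and ligands 5 did (19.2%: EGFR, ERBB2, AXL, EPHB2 and ROR1). Of 30 YAP and TEAD pathway genes 4 did (AXL, F3, NT5E and DOCK5), AXL and NT5E being counted in other lists too. Of the other lists, 1 of 20 epithelial genes (5.00%, KRT19), 1 of 25 S100 and annexin genes (4.00%, S100A6), 1 of 23 NF-kB and cytokine genes (4.35%, CSF1), 2 of 27 TGF-beta genes (7.41%, SMAD2 and SMAD3), none of 11 AP-1 genes and none of 26 actin and focal adhesion genes had one. These shares were not tested. The lists differ in how many of their genes had any DU-145 peak assigned, with 25 of the 26 actin and focal adhesion genes and 16 of the 20 mesenchymal genes. A shared peak also takes a SKOV-3 peak. Peaks of both lines were assigned to 6154 of all 19794 genes, 10 of 20 mesenchymal and 6 of 20 epithelial genes. They were assigned to 20 of 26 actin and focal adhesion, 16 of 27 integrin and laminin and 12 of 26 receptor tyrosine kinase genes. The whole-list shares above do not allow for this.

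The mark at starts was counted in each line over the same lists. A peak stood at a start of 13 of the 20 mesenchymal genes in DU-145, 9 in SKOV-3, 6 in OVCAR-3 and 5 in COLO-205. Of the 20 epithelial genes, 14 were marked in DU-145, 4 in SKOV-3, 19 in OVCAR-3 and 17 in COLO-205, so DU-145 had most genes of both lists marked. CDH1, EPCAM, ESRP1, CLDN4 and ELF3 were marked in DU-145, OVCAR-3 and COLO-205 and not in SKOV-3. The one epithelial shared peak, near KRT19, had folds of 5.46 and 3.70 and lay 203 and 237 bp from COLO-205 and OVCAR-3 peaks. SKOV-3 had 14001 peaks against 75468 to 85576 in the other lists, and peaks at the starts of 6131 genes against 9665 to 11768, and the part of this in the SKOV-3 counts was not tested.

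The tissue labels were checked at marker starts. Of prostate markers, DU-145 had a peak at TMPRSS2, SLC45A3 and FOXA1 and none at KLK2, KLK3, HOXB13 or FOLH1. SKOV-3 had one at 4 of 10 ovarian markers (PAX8, SOX17, MECOM and ESR1) and none at WT1 or MUC16, while OVCAR-3 was marked at 9, DU-145 at 6 and COLO-205 at 5, so these ovarian markers did not set SKOV-3 apart. None of these prostate markers and no colon marker had a shared peak, and 1 ovarian marker did, SOX17, at 12236 bp from the start and at the 8.33 and 0.786 percentiles.

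Shared peaks lay in 416 windows of 1 Mb, and a few of these held many. Chromosome 14 held 123 of the 841 (14.6%) and chromosome 9 held 83 (9.87%). Chromosome 14 also held 14.3% of all DU-145 peaks but 5.56% of SKOV-3 peaks, and chromosome 9 held 6.52 and 5.29%. The megabase from 73 to 74 Mb of chromosome 14 had 45 shared peaks, with 276 DU-145 and 122 SKOV-3 peaks beside 36 of COLO-205 and 32 of OVCAR-3. Of the next 3, all on chromosome 9 between 33 and 37 Mb, that from 36 to 37 Mb held 22, with 309 DU-145, 69 SKOV-3, 57 COLO-205 and 53 OVCAR-3 peaks. The part of this peak density in the counts of shared peaks was not tested, and the DNA copy number of the lines was not analysed here. Without chromosomes 9 and 14 the near-start share of the class was 19.4%.

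**Figure D4:**
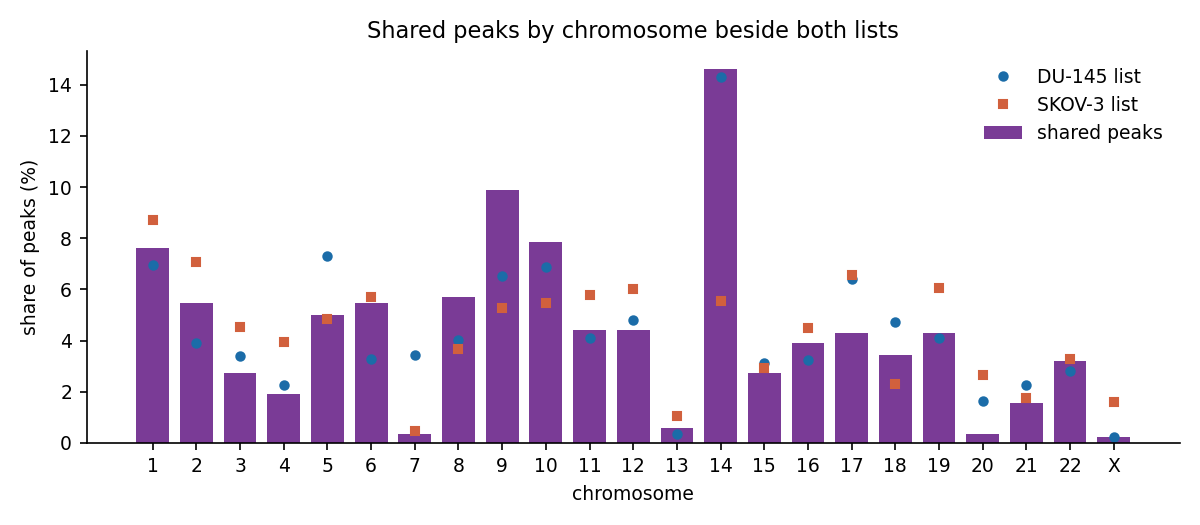
Share of the 841 shared peaks on each chromosome (purple bars, percent), beside the share of all DU-145 peaks (blue circles) and of all SKOV-3 peaks (red squares) there. Chromosome 14 holds 14.6% of the shared peaks, close to its 14.3% of the DU-145 list, and chromosome 7 holds 0.357%, close to its 0.464% of the SKOV-3 list.

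Chromosome 13 held 5 shared peaks among 249 DU-145 and 147 SKOV-3 peaks, and these 5 were 2.01% of its DU-145 peaks, the highest share of any chromosome. Chromosome 20 had 3 shared peaks, 0.246% of its 1219 DU-145 peaks.

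Several of the genes with the most shared peaks lay in these megabases. NUMB, an inhibitor of Notch signalling, had 22, out of 73 DU-145 and 42 SKOV-3 peaks assigned to it. Their folds ran from 3.59 to 9.05 in DU-145 and from 4.41 to 8.49 in SKOV-3, and they lay 1069 to 23473 bp from the nearest start, none within 1 kb. These peaks were weak, with none above the 51.7 percentile in both lists, and with a −log10 q of at least 10 in every list 1 was left. PAPLN, which encodes an extracellular matrix protein and lies next to NUMB, had 12, of which 2 were near a start. ZFYVE1, in the same megabase, had 7. MELK, a kinase of dividing cells, had 9 on chromosome 9, where UBE2R2, RUSC2 and PAX5 had 6 each.

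Elsewhere, SYNJ2, a phosphoinositide phosphatase on chromosome 6, had 6 shared peaks among only 9 DU-145 and 27 SKOV-3 peaks assigned. Their folds ran from 2.90 to 5.90 in DU-145 and from 5.62 to 13.5 in SKOV-3. ITPK1, an inositol phosphate kinase at 93 Mb of chromosome 14, had 6 within 12.9 kb. In all, shared peaks no more than 25 kb apart formed 602 runs, 480 of 1 peak and 52 of 3 or more, and the latter held 221 peaks (26.3%). Neighbours within a run are not independent of each other.

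Single distal peaks reached high ranks in both lines at other places. The one that ranked highest in the weaker of both lines lay in an intron of ADTRP, 6783 bp from a start. It had folds of 6.85 (89 tags) and 9.02 (61 tags), at the 97.5 and 95.9 percentiles. The nearest COLO-205 peak was 210705 bp and the nearest OVCAR-3 peak 38776 bp away. A peak 6316 bp from CDKN2C, an inhibitor of the cyclin D kinases, had 7.18 (66 tags) and 9.45 (53 tags), and was 1963 bp wide in DU-145 and 1137 bp in SKOV-3. A peak 10866 bp from SNAPC1, on chromosome 14, had 5.79 and 7.45. DUSP7, a phosphatase of ERK, had 5.14 and 7.28 at 8605 bp, and JADE2 7.65 and 10.3 at 20105 bp. An intronic peak of PRKCH, a protein kinase C, had 8.33 and 11.2 with summits 6 bp apart. Peaks assigned to NIPA1, CAPN13 and CLXN lay 107784, 140988 and 320397 bp from the named start, with SKOV-3 folds of 12.9, 12.2 and 14.3, and the nearest gene serves here only to name the place. The tenth, named for ZFP36L1, lay inside RAD51B.

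Integrin and TGF-beta genes had distal shared peaks of lower rank than these 10. ITGB1 had a pair of intronic ones with folds of 6.03 and 8.69 in DU-145 and of 6.73 and 8.40 in SKOV-3, and the nearest peak of another line was 21861 bp away. Both peaks near SMAD2, a transducer of TGF-beta, lay 72067 and 77182 bp from its start. The SMAD3 peak had 7.40 in DU-145 and 6.32 in SKOV-3.

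The letters at the DU-145 summits were close to those of DU-145 peaks in general for most factors. AP-1 is the FOS and JUN dimer found at many enhancers of carcinoma cells, and its letters TGANTCA, which take in the canonical site and other middle bases, stood within 150 bases of the summit in 59 of 708 distal shared peaks (8.33%, 6.40 to 10.6%). All 57368 distal DU-145 peaks had them in 7.81%, those shared only with OVCAR-3 in 8.60% and those shared only with COLO-205 in 6.30%. The share is near the background. Near a start, 3 of 133 had them (2.26%), beside 3.71% of all DU-145 peaks near a start. The TEAD letters GGAATG stood in 13.7% of the distal shared peaks and in 11.9% of all distal DU-145 peaks, the RUNX letters TGTGGT in 23.4 and 25.7%, and the ZEB and SNAI E-box letters CAGGTG in 42.9 and 46.7%. Each motif was searched on both strands, and matches may share bases, as AGGGGGC and GGGCGG can.

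Of the 18 motifs searched, the HNF4 letters AAAGTCC are given in more detail. They stood in 39 distal shared peaks on 17 chromosomes (5.51%, 3.95 to 7.45%) and in 2.78% (2.65 to 2.92%) of the 56660 other distal DU-145 peaks, with 2.73% in the class shared only with OVCAR-3. At the SKOV-3 summits of the same peaks the share was 4.38% (2.99 to 6.16%). This motif was singled out after its value was seen, and a panel of 18 makes such a gap easier to meet. Near a start it stood in 5 of 133 (3.76%, 1.23 to 8.56%), beside 2.64% of all DU-145 peaks near a start, which is near the background. The gene HNF4A itself had no DU-145 or SKOV-3 peak assigned, and only COLO-205 had a peak at its start. Binding of a factor at the letters was not tested. The CTCF core letters AGGGGGC stood in 8.19% of the distal shared peaks and 6.07% of all distal DU-145 peaks, the NF-kB letters in 1.55 and 0.955%, and the long NFI palindrome was in none of the 708.

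**Figure D5:**
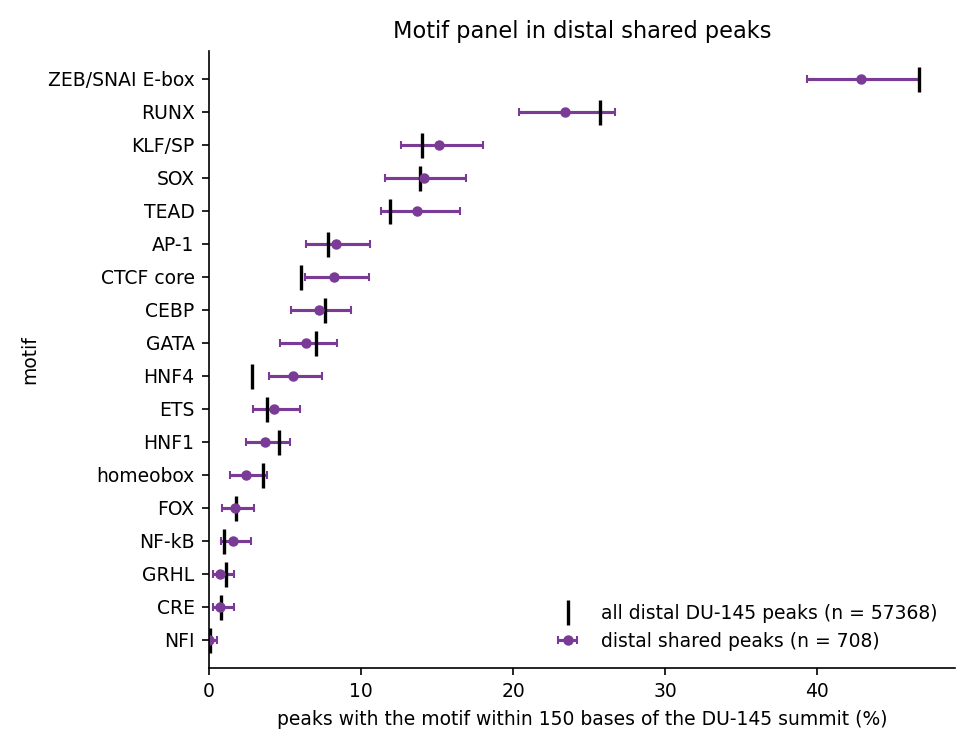
Share of distal peaks with each of 18 motifs within 150 bases of the DU-145 summit (x axis, percent), for the 708 distal shared peaks (purple points with exact 95% intervals) and all 57368 distal DU-145 peaks (black bars). The AP-1 point at 8.33% lies beside its bar at 7.81%, and the HNF4 point at 5.51% lies to the right of its bar at 2.82%.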

How the data were processed

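H3K27ac peaks of 4 lines, 1 library each, were analysed. According to the submitters' processing notes and the methods, the authors mapped reads to hg19 with Bowtie2 2.1.0 and used MACS2 2.1.0.20150603 for narrow peaks per library, keeping a q-value under 0.001. Every deposited peak holds a score (10 times −log10 q), a fold enrichment, a −log10 p-value and a −log10 q-value, none of them scaled between libraries. The methods merge peaks less than 350 bp apart, but closer neighbours stand in the deposited lists, which were used as they are.

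Overlaps needed 1 base. Peaks were assigned to the nearest protein-coding start of GENCODE v44lift37 within 1 Mb. Summit pileups were solved from the deposited fold and −log10 p (tolerance 0.001), with 100% solved in both lists, which gave about 36000000 ChIP tags in DU-145 and 22400000 in SKOV-3 for 2700000000 genome positions. Sequences came from the GRCh37 genome. Intervals are exact Clopper-Pearson at 95% and cover counting error only. With 1 library per line no test was run. The code, in Python 3.11.15 with scipy 1.17.1, was tested on simulated data.

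The shared peaks, gene lists and motifs were chosen with earlier results of these data known. Named are the 10 genes with most shared peaks, the 10 distal and 10 near-start peaks with the highest lower percentile of −log10 q, up to 4 genes per list with a shared peak, and predicted master regulators. Some genes of these groups are not reported here. The start windows and the genes with no other line's peak were chosen after the values were seen. The alternatives tried were a stricter −log10 q (5 or 10), 50% coverage of the DU-145 peak, merging, a 350 bp margin to the other lines, equal numbers of peaks, 2.5 kb, other windows and leaving out chromosomes.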

Additional observations from a re-analysis of the deposited data

How the results depend on the processing

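Of 51 recomputed main values, 32 stayed within the 95% interval of a share or median, or within 1.5 times a count, and 19 moved. With a −log10 q of at least 10 in every list the class fell to 318 peaks at 262 genes, 31.1% near a start and with a summit distance of 60.5 bp. With 50% of the DU-145 peak covered it held 467 peaks at 342 genes, 13.1% near a start, a summit distance of 58.0 bp and 32 genes with no other line's peak at a start in place of 73. Merging gave a summit distance of 84.0 bp. With 14001 peaks in every list the class had 1044 peaks, 55.1% near a start, 4.89% with AP-1 letters, 853 genes and 415 genes with no other line's peak at a start, of which 32 were among the 73. The near-start share was 19.4% without chromosomes 9 and 14 and 22.6% within 2.5 kb. The AP-1 share over all 841 peaks, 7.37%, was 1.43% within 50 bases of the summit, 19.7% within 250 and 20.7% in the whole peak. Leaving out chromosome 9 with 14, the whole-peak search and the 73 genes were added after the data were seen.

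Of the named genes, NT5E kept 2 shared peaks and VIM at least 1 under all 7 settings that changed the class. CAV1 lost its peak at a −log10 q of 10 and at 50% coverage, CAVIN1 and AXL at 50% coverage, CD44 at a −log10 q of 10 and with equal lists, and ZEB1 under merging and with the 350 bp margin. NUMB kept 1 of 22 at a −log10 q of 10 and had 3 with equal lists. Of 469 values for gene lists and named genes, 333 stayed and 136 moved. No paired analysis was possible because each line has 1 library and no test was run. SKOV-3, with 14001 peaks and fewer tags, limits what could be found as shared.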

Other observations

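Other genes with a shared peak at a start and no COLO-205 or OVCAR-3 peak at any start were picked out after their values were seen. The WNT ligand genes WNT7A, WNT7B and WNT9A were among the 73, and each had 1 shared peak at a start. WNT7A had a fold enrichment of 3.65 in DU-145 and 8.32 in SKOV-3, WNT7B 4.25 and 4.87, and WNT9A 4.09 and 4.11. The summits of both lines lay 1775 bp apart at WNT7A and 769 bp apart at WNT9A, so their folds were read at different positions. The WNT7A peak stood at the 17.5 percentile in DU-145 and the WNT9A peak at the 10.2 percentile in SKOV-3. FGF2, which encodes a fibroblast growth factor, had 5.43 (45 tags) and 5.34 (40 tags). NNMT, which encodes nicotinamide N-methyltransferase, had 10.2 (49 tags) and 9.04 (25 tags), and BCL2, an inhibitor of apoptosis, had 6.44 and 5.01. The summits lay 422 bp apart at FGF2 and 348 bp apart at BCL2. CD70, a ligand of the tumour necrosis factor family, had a pair of shared peaks at its start that met the same SKOV-3 peak, with DU-145 folds of 3.39 and 3.98 and a SKOV-3 fold of 3.97.

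Zinc finger genes of the ZNF series made 8 of the 73 (ZNF221, ZNF350, ZNF354C, ZNF468, ZNF701, ZNF83, ZNF880 and ZNF888), where 513 of 19794 protein-coding genes have such a name. ZNF83 had 3 shared peaks at its starts. All but ZNF354C lay on chromosome 19. The megabase chr19:53000001-54000000, with ZNF83, ZNF888, ZNF468 and ZNF701, held 8 shared peaks. It had 14 DU-145 and 36 SKOV-3 peaks beside 12 of COLO-205 and 3 of OVCAR-3. Such neighbours are not independent of each other. The 513 genes were counted whether or not a line had a peak there, and these shares were not tested. The ZNF880 peak had a SKOV-3 −log10 q of 41.1, the highest of all 133 shared peaks near a start.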
